A study of Mus musculus with 8 samples.

Results

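The genes described here belong to families of enzymes that write or erase histone marks, of proteins that read them, and of machines that move nucleosomes. Members were the symbols matching 16 name patterns (the KDM, KMT, KAT, SETD, SMARC, CHD, BRD, ARID, EZH, NCOA, SIN3 and CBX families, and single symbols that include EP300, CREBBP, NCOR1 and 5 HDAC genes) with a sum of at least 40 counts over the 8 libraries. Of 115 symbols that matched, 79 met that sum, out of 33514 symbols in the table, of which 7926 had a count. The sum runs over both groups together. CBX2, with a sum of 45, lay just inside it and ARID5A, with 37, just outside.

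RNA was sequenced from cultured cardiomyocytes, the contractile cells of the heart, isolated from adult C57BL/6 mice. The 4 siHoxa5 libraries came from cells transfected with a small interfering RNA (siRNA) against Hoxa5, a homeobox transcription factor, and the 4 siN libraries from cells given a negative control siRNA. Both groups received phenylephrine, an alpha1-adrenergic agonist that induces hypertrophic growth of cardiomyocytes, at 100 µM for 24 h, starting 24 h after transfection. The age, sex and number of mice and whether the repeats came from separate hearts are not given, so a p-value here reflects only how these libraries vary, which may be technical variation.

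Acetyltransferases such as EP300 open chromatin by acetylating histone tails, and deacetylases in NCOR and SIN3 complexes reverse it. Polycomb repressive complex 2, with EZH1 or EZH2 as its enzyme, methylates lysine 27 of histone H3 and silences developmental genes, and KDM6 enzymes remove that mark. SWI/SNF (BAF) and CHD complexes use ATP to slide or evict nucleosomes, and in the developing mouse heart the BAF subunit SMARCD3, also called BAF60c, works with cardiac transcription factors.

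The libraries held 560191 to 619942 counts in siHoxa5 and 635825 to 658192 in siN. HOXA5, the siRNA target, had 1, 3, 4 and 1 counts in siHoxa5 libraries 1 to 4, against 2, 0, 3 and 3 in siN libraries 1 to 4. A lower level in siHoxa5 was not detectable at these counts, where 3 counts, the limit that a count of 0 allows, correspond to 4.60 to 5.46 CPM (each gene's counts as a rate of all counts, on library sizes scaled by edgeR's TMM method). Such limits cover counting error only. Of 10 cardiomyocyte markers TNNI3, PLN and NPPA were at 0 in every library. The other 7 summed to 61440 to 66854 CPM in siHoxa5 and 48076 to 51246 CPM in siN, nearly all of it MYH6 and MYH7, the heavy chains of cardiac myosin. Without these 2 genes the sum was 4071 to 4412 CPM in siHoxa5 and 3228 to 3514 CPM in siN. Of these 7 markers, all tested, 4 were higher in siHoxa5 and 1 lower at an edgeR adjusted p under 0.05. Of all tested genes 3.74% were higher and 3.38% lower. The lower marker was TNNT2, cardiac troponin T (log2 fold change -0.44, edgeR adjusted p = 0.0257). Of 9 fibroblast markers TCF21 and LUM were at 0 and the other 7 summed to 10961 to 12879 CPM in siHoxa5 and 10221 to 10909 CPM in siN. COL1A1 and COL1A2, the type I collagen chains, made up nearly all of this. The other 5 summed to 47.3 to 60.4 CPM in siHoxa5 and 44.4 to 66.1 CPM in siN, with 1 count of PDGFRA and 1 of DCN in all. Of the 3 fibroblast markers tested, 1 was higher in siHoxa5 and 0 lower at that threshold. PECAM1, CDH5, VWF and EGFL7 of 6 endothelial markers, CNN1, PDGFRB and RGS5 of 5 smooth muscle and pericyte markers, and CD68, ADGRE1 and CD14 of 5 macrophage markers were at 0. These 3 lists summed to at most 32.7, 26.1 and 1.82 CPM in a siHoxa5 library, and 31.7, 29.2 and 1.57 CPM in a siN library. The part of the marker levels in the results below was not tested, and fewer cells of a type and less RNA per cell cannot be told apart in bulk RNA.

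Most chromatin genes differed little between siHoxa5 and siN. Of the 79 members 78 passed the filter on low counts and were tested, and 3 rose in siHoxa5: the NuRD ATPase CHD3, the histone methyltransferase EZH2 and the BAF subunit SMARCD3. None of the 78 fell. These 3 are 3.85% of the tested members, where 7.12% of all 3020 tested genes were called, 3.74% of all genes as higher and 3.38% as lower (edgeR's quasi-likelihood fit, p under 0.05 after Benjamini-Hochberg adjustment). At an unadjusted p under 0.05 there were 7 members, 6 higher and 1 lower, or 8.97%, against 19.6% of all tested genes (9.30% higher and 10.3% lower). The CPM values of the 2 groups did not overlap for 4 members, 3 higher and 1 lower, or 5.13%, against 12.0% of all tested genes (6.19% higher and 5.76% lower). DESeq2 called 1 member, CHD3, and 4.77% of the 2493 genes to which it gave an adjusted p.

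The members' log2 fold changes lay close to 0. Their median was 0.031 (quartiles -0.03 and 0.12), against -0.0037 over all tested genes (quartiles -0.16 and 0.15). The log2 fold change was under 0.25 in size for 66 of 78 members (84.6%) and for 69.3% of all tested genes, and CHD9 was the 1 member beyond 0.5. The 95% interval lay wholly inside a 1.5-fold change in either direction for 60 of 78 members (76.9%) and for 59.0% of all tested genes. Members had a median level of 125 CPM, against 89.2 CPM over all tested genes that matched a transcript, and the part of this in their narrower spread was not tested. Fold changes were above 0 for 52 members and below 0 for 26, where 50.6% of all tested genes were below 0. After a correction for transcript length and GC content in each library, 38 members were above 0 and 40 below (51.0% of all tested genes below), and the members' median was -0.0069 and that of all tested genes -0.0053. With library totals in place of TMM, 46 members were above 0 and 32 below (53.4% of all tested genes below). With no filter on low counts the members' median was 0.04 and that of all genes with a count 0.09.

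**Figure D1:**
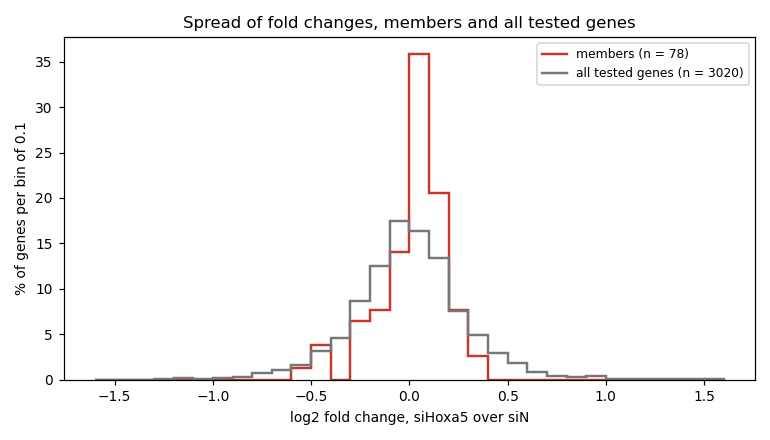
Share of genes (%, vertical axis) per bin of log2 fold change, siHoxa5 over siN (horizontal axis), for the 78 tested members and for all 3020 tested genes. The members are packed more closely around 0, with 66 of 78 within 0.25 of it.

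**Figure D2:**
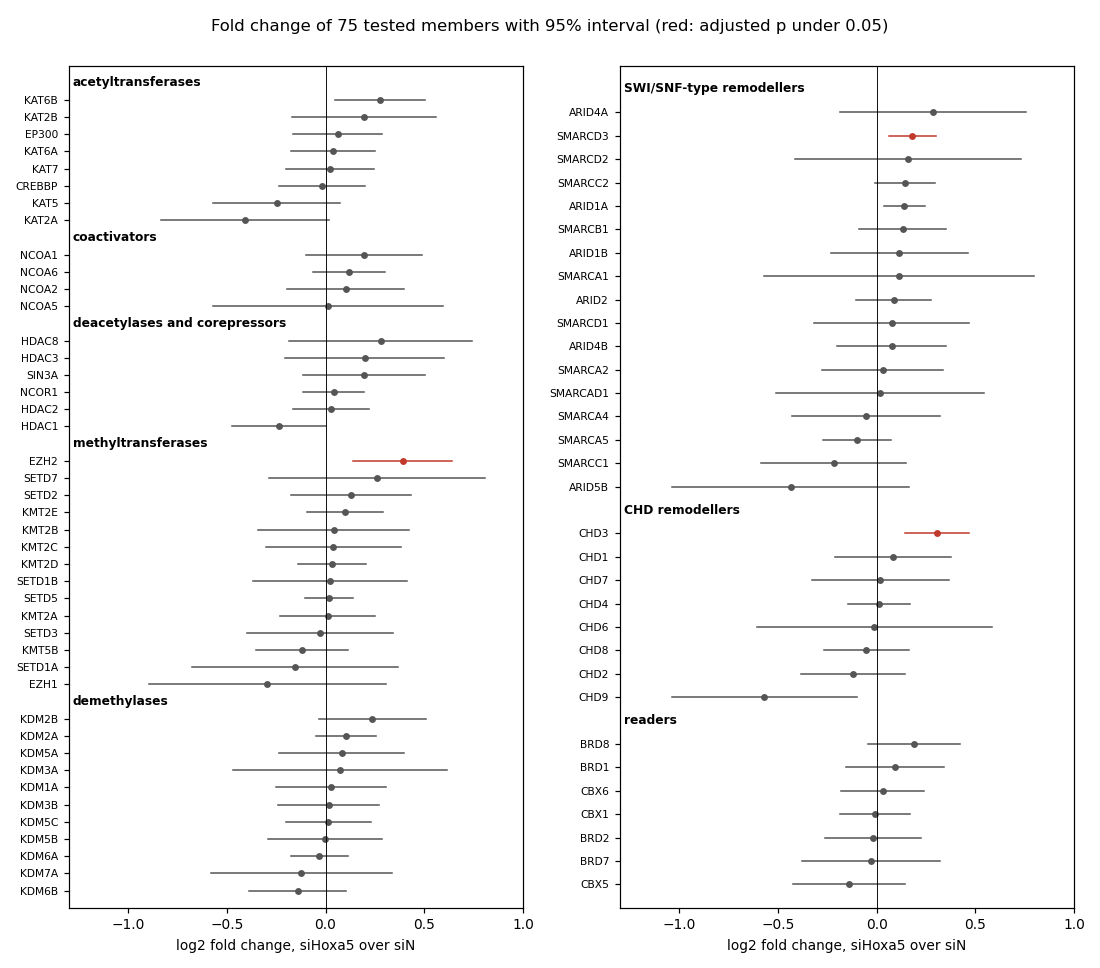
Log2 fold change, siHoxa5 over siN (horizontal axis), of 75 of the 78 tested members by role class, each with its 95% interval from edgeR (n = 4 and 4). CHD3, EZH2 and SMARCD3 had an adjusted p under 0.05, and members with few counts, such as CHD6 and SMARCA1, have wide intervals.

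Of the 8 CHD remodellers, CHD3 rose and the other 7 did not pass. CHD3, an ATPase of the nucleosome remodelling and deacetylase complex NuRD, had 457, 523, 479 and 498 CPM in siHoxa5 libraries 1 to 4, against 355, 430.2, 390.3 and 407 CPM in siN libraries 1 to 4. Every siHoxa5 library lay above every siN library. The means were 489 ± 27.9 CPM in siHoxa5 and 396 ± 31.6 CPM in siN (n = 4 each, ± SD), or a log2 difference of 0.30 (SE 0.08 and adjusted p = 0.0086 by edgeR). The mouse gene lies on the minus strand of chromosome 11 (69343273 to 69369406, GRCm38, the assembly also called mm10, GENCODE M21). The CHD3 call was lost without siN library 1 (0.26, edgeR adjusted p = 0.073) and without siHoxa5 libraries 2 and 4 together (0.25, edgeR adjusted p = 0.108). These 2 siHoxa5 libraries lay farthest from siN on the first principal component, at 10.8 and 10.95 against 2.74 and 4.69 for the other 2 and at most -6.30 for siN.

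CHD4, the paralog that takes the same place in NuRD, had 493 ± 41.8 CPM in siHoxa5 and 491 ± 19.0 CPM in siN (n = 4 each, ± SD), or a log2 difference of 0.01 with a 95% interval of -0.14 to 0.17. Counts of CHD3 per count of CHD4 were 0.836, 1.12, 0.948 and 1.10 in siHoxa5 libraries 1 to 4, against 0.711, 0.852, 0.844 and 0.824 in siN libraries 1 to 4. Library 1 of siHoxa5 lay within the siN range and the other 3 above it. CHD9, a member of the CHD6 to CHD9 subfamily, had 31.0, 38.3, 32.6 and 34.6 CPM in siHoxa5, against 66.1, 41.3, 44.1 and 50.6 CPM in siN. The groups did not overlap, with siHoxa5 below siN, yet CHD9 did not pass (log2 fold change -0.57, SE 0.24 and adjusted p = 0.14 by edgeR). CHD1, CHD2, CHD6, CHD7 and CHD8 had log2 fold changes between -0.12 and 0.08.

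SWI/SNF-type remodellers, grouped here by the symbols SMARC and ARID, held more counts than any other class. Of 17 tested, SMARCD3 rose and 16 did not pass, with 13 fold changes above 0 and 4 below. The median log2 fold change of the class was 0.09, and 0.03 after the length and GC correction. Their summed level was 5259, 5505, 5475 and 5631 CPM in siHoxa5 libraries 1 to 4, against 5012, 5096, 5004 and 5104 CPM in siN libraries 1 to 4. All siHoxa5 sums lay above all siN sums, also as a share of the raw counts (0.523% to 0.542% in siHoxa5 and 0.497% to 0.506% in siN). The sum is carried mostly by ARID1A and SMARCD3.

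SMARCD3 had 1136, 1169, 1068 and 1300.4 CPM in siHoxa5 libraries 1 to 4, against 1010.5, 1029, 1034 and 1045 CPM in siN libraries 1 to 4. The siN values were tight, and every siHoxa5 value lay above them, library 4 farthest. The log2 fold change was 0.18 (SE 0.06 and adjusted p = 0.0475 by edgeR), a 1.13-fold difference. Its call was lost without any 1 of the siN libraries, without siHoxa5 library 2 or 4 (0.18 and 0.13) or both (0.10), and with DESeq2, limma-voom, library totals in place of TMM and no filter on low counts. After the length and GC correction its log2 fold change was 0.28 (edgeR adjusted p = 0.000445).

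Per kilobase of transcript, SMARCD3 had the highest value of the members, at 674 ± 56.2 CPM per kb in siHoxa5 and 593 ± 8.26 in siN (SD, n = 4 each). Its paralogs SMARCD1 and SMARCD2, which can fill the same BAF60 position, had 19.5 ± 2.39 and 11.7 ± 4.60 CPM per kb in siHoxa5, against 18.5 ± 4.86 and 10.5 ± 4.46 CPM per kb in siN. In these counts SMARCD3 therefore stood far above both paralogs in each group. SMARCD1 and SMARCD2 had log2 fold changes of 0.08 and 0.16 that did not pass. The part of the assignment of reads to symbols in differences between genes, here and below, was not tested. Counts of SMARCD3 per count of SMARCD1 were 18.3 ± 2.94 in siHoxa5 and 17.9 ± 5.74 in siN.

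ARID1A, the large DNA-binding subunit of canonical BAF, had 2038, 2284, 2157 and 2244 CPM in siHoxa5, against 1939, 2086, 1908 and 1981 CPM in siN. Library 1 of siHoxa5 lay within the siN range and the other 3 above it, and ARID1A did not pass (log2 fold change 0.14, SE 0.05 and adjusted p = 0.0879 by edgeR). It passed without siHoxa5 library 1 (0.17, edgeR adjusted p = 0.0266). SMARCC2, a BAF scaffold subunit, had 563, 501, 554 and 504 CPM in siHoxa5, against 478, 473, 472 and 499 CPM in siN. The groups did not overlap but came within a few CPM, and SMARCC2 did not pass either (0.14, SE 0.08 and adjusted p = 0.288 by edgeR).

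The ATPases of these complexes did not pass. SMARCA4 (BRG1) had a log2 fold change of -0.05 (95% interval -0.43 to 0.32), SMARCA2 (BRM) 0.03 (-0.28 to 0.34) and SMARCA5, the ATPase of ISWI complexes, -0.10 (-0.27 to 0.07). Per kilobase, SMARCA5 stood at 60.0 ± 1.58 CPM in siHoxa5 and 64.2 ± 4.33 CPM in siN, above SMARCA2 (17.8 ± 1.76 in siHoxa5, 17.4 ± 1.62 in siN) and SMARCA4 (10.5 ± 1.59 in siHoxa5, 10.8 ± 2.23 in siN). SMARCB1, a core BAF subunit, had 138 ± 18.3 CPM per kb in siHoxa5 and 126 ± 5.39 CPM per kb in siN. Among members outside SWI/SNF in function, ARID4A, a partner of the SIN3 complex, had a log2 fold change of 0.29 and ARID5B, a partner of the demethylase PHF2, -0.44, neither past the threshold (edgeR adjusted p = 0.558 and 0.466).

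**Figure D3:**
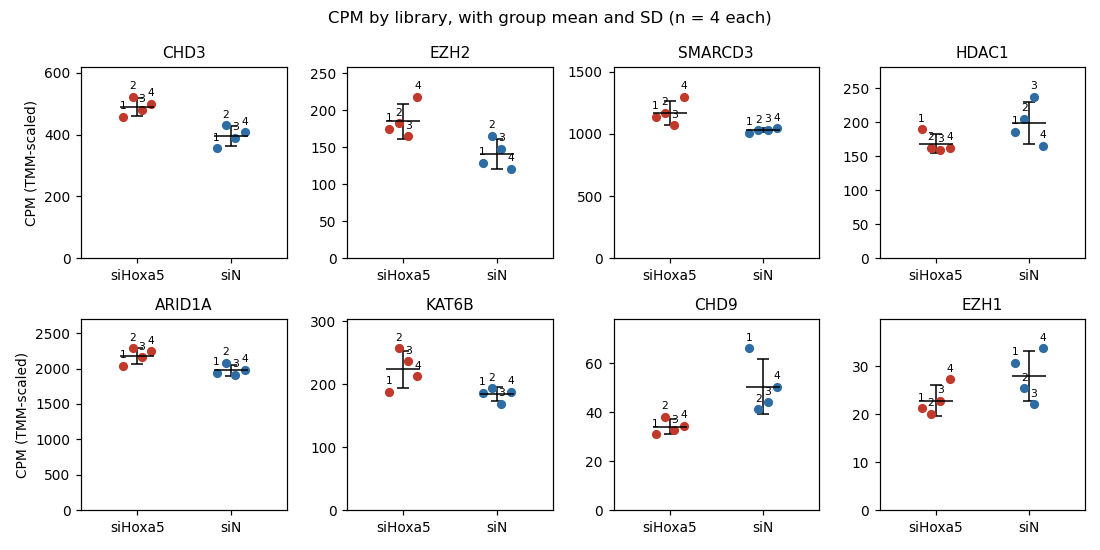
CPM (vertical axes) of CHD3, EZH2, SMARCD3, HDAC1, ARID1A, KAT6B, CHD9 and EZH1 in each siHoxa5 library (left) and siN library (right), with the replicate number beside each point and the mean ± SD (n = 4 each). CHD3 and SMARCD3 separate the groups upward and CHD9 downward, and the other 5 overlap.

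Of the 14 methyltransferases, grouped here by the symbols KMT, SETD and EZH, EZH2 rose and 13 did not pass. This grouping by name does not show that each one methylates histones. EZH2 had 175, 182, 164.7 and 218 CPM in siHoxa5 libraries 1 to 4, against 129, 165.1, 148 and 121 CPM in siN libraries 1 to 4. The groups overlapped narrowly, since siHoxa5 library 3 lay just under siN library 2. The means were 185 ± 23.3 CPM in siHoxa5 and 141 ± 19.7 CPM in siN (n = 4 each, ± SD), or a log2 difference of 0.39 (SE 0.13 and adjusted p = 0.0394 by edgeR). The EZH2 call was lost without siHoxa5 library 2 or 4, without siN library 1, 3 or 4, and with both of those siHoxa5 libraries left out (0.28, edgeR adjusted p = 0.371). DESeq2 did not call it either (adjusted p = 0.119), nor did edgeR with library totals in place of TMM or with no filter on low counts.

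EZH1, the other enzyme of polycomb repressive complex 2, had 22.8 ± 3.17 CPM in siHoxa5 and 28.0 ± 5.24 CPM in siN (SD, n = 4 each). Its log2 fold change was -0.29, with a 95% interval of -0.89 to 0.30, on 11 to 15 counts a library in siHoxa5 and 14 to 22 in siN. Counts of EZH2 per count of EZH1 were 8.2, 9.1, 7.2 and 8.0 in siHoxa5 libraries 1 to 4, against 4.2, 6.5, 6.7 and 3.6 in siN libraries 1 to 4. The siHoxa5 ratios all lay above the siN ratios.

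A two-sided exact permutation test of the mean log2 ratio of EZH2 to EZH1, over the 70 assignments of 8 libraries to 4 and 4, gave p = 0.0286, the smallest this design allows. Adjusted by the Benjamini-Hochberg method over the 12 paralog pairs compared, the exact test gave 0.343. With 1 pair at the smallest p, no lower adjusted value could be reached, so this adjusted test could not have passed for a single pair. The difference in mean log2 ratio was 0.68, and between 0.51 and 0.81 with 1 library left out. EZH2/EZH1 was the 1 pair of 12 without overlap, where the CPM values of 12.0% of all tested genes did not overlap. The ratio uses the same EZH2 counts that gave the EZH2 call, so it adds no independent evidence. CHD3/CHD4 followed with an exact p of 0.0857 (adjusted 0.514). The pairs were chosen with the members' values known. The other 10, among them SMARCA2/SMARCA4, EP300/CREBBP, KDM6B/KDM6A and KMT2D/KMT2C, had exact adjusted p-values of 0.514 to 0.971.

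The promoter windows of Ezh2, Ezh1 and Smarcd3 are shown to set the paralog that rose beside the one that did not pass, and beside the BAF subunit that rose. Chd3 was not matched to a window, so none is shown for it. Each window spans 250 bases before to 50 after a RefSeq gene start on GRCm38.p6, 5′ to 3′ on the gene's strand. Ezh2 is at chr6:47594981-47595280, Ezh1 at chr11:101226414-101226713 and Smarcd3 at chr5:24601953-24602252, all on the minus strand. The Smarcd3 start lies 22409 bases inside the gene as GENCODE M21 draws it, 10 bases from the nearest of 9 annotated transcript starts. Of these transcripts 2 start upstream of the window's start site. The Ezh2 start lies 311 bases inside its gene so drawn, at an annotated transcript start, and 1 of 15 transcripts starts upstream of it. The whole Ezh2 window thus lies within the annotated gene. The Ezh1 start is that of the GENCODE gene. Capitals mark matches on either strand to the box bound by NF-Y, CCAAT, the box bound by Sp1 proteins, GGGCGG, an E2F site, TTTGGCGC, the TATA box in the form TATAAA, or the core that homeodomains recognise, TAAT.
Ezh2: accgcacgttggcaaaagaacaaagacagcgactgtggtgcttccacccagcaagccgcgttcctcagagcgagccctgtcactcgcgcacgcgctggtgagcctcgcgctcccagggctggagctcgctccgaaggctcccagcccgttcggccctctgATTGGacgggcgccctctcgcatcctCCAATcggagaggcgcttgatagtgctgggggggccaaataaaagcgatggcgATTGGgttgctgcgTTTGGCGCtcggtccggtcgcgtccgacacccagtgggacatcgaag
Ezh1: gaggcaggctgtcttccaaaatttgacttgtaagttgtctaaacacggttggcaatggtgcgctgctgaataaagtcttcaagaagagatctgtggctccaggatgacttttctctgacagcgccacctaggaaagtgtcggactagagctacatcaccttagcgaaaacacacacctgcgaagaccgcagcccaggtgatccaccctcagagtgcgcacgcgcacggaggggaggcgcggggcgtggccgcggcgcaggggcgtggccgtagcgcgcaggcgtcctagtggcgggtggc
Smarcd3: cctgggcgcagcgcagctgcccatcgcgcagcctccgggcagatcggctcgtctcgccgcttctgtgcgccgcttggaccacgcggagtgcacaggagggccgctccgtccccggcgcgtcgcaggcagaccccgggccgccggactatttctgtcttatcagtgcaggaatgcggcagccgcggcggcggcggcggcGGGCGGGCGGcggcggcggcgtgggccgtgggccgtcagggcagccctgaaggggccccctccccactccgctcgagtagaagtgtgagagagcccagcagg

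The Ezh2 window held 31 CpG dinucleotides, 3 CCAAT matches, of which those on the other strand read ATTGG, and 1 TTTGGCGC. The Smarcd3 window held 40 CpG dinucleotides and 2 GGGCGG matches that overlap each other, and the Ezh1 window 23 CpG dinucleotides and no match to the 5 motifs. Of 27025 RefSeq promoters of this length, 1 per gene, 37.9% held CCAAT, 35.9% GGGCGG, 0.537% TTTGGCGC, 14.2% TATAAA and 58.3% TAAT. Of the 79 members 57 were matched to a window. In these, 68.4% held GGGCGG, 29.8% CCAAT, 40.4% TAAT, 7.02% TATAAA and 1.75% TTTGGCGC (Ezh2 alone), and the median was 26 CpG dinucleotides, against 7 over all promoters. A match describes the letters in a window and is no bound site.

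Among the other methyltransferases SETD5, the most abundant of the class in CPM, had 1086, 1217, 996 and 1089 CPM in siHoxa5, against 1039.7, 1129, 1061 and 1103 CPM in siN. The siHoxa5 values spanned the siN values, and the log2 fold change was 0.02 (95% interval -0.10 to 0.14). KMT2D, which methylates lysine 4 of histone H3 at enhancers, had 0.03 (-0.14 to 0.21). KMT2E and KMT5B, which methylates histone H4, had 0.10 and -0.12, neither past the threshold. KMT2A, KMT2B, KMT2C, SETD1A, SETD1B, SETD2, SETD3 and SETD7 lay between -0.15 and 0.26.

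Of the 11 demethylases none passed, and their log2 fold changes ranged from -0.14 to 0.24. KDM6A and KDM6B, which remove the mark that EZH2 writes, had -0.03 (95% interval -0.17 to 0.11) and -0.14 (-0.39 to 0.10). KDM6A had 624, 710.4, 559 and 635 CPM in siHoxa5, against 663, 621, 652 and 643 CPM in siN, so siHoxa5 values spread to both sides of siN. KDM2B, which brings polycomb complexes to CpG islands, had 154 ± 12.9 CPM in siHoxa5 and 131 ± 29.7 CPM in siN (SD, n = 4 each; log2 fold change 0.24, edgeR adjusted p = 0.336). Its paralog KDM2A had a log2 fold change of 0.10 (-0.05 to 0.26). KDM4C, below the sum for members with 26 counts in all and not tested, had 1, 1, 1 and 2 counts in siHoxa5, against 3, 5, 8 and 5 in siN.

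Of the 8 acetyltransferases none passed. EP300 and CREBBP, the paralogs that acetylate histone H3 at enhancers, had log2 fold changes of 0.06 (95% interval -0.16 to 0.29) and -0.02 (-0.24 to 0.20). KAT6B (MORF) had 188, 257, 236 and 213 CPM in siHoxa5, against 186, 194, 168 and 188 CPM in siN. Library 1 of siHoxa5 lay within the siN range and the other 3 above it (log2 fold change 0.28, SE 0.11 and adjusted p = 0.138 by edgeR), and KAT6B passed without that library (0.35, edgeR adjusted p = 0.0446). Its paralog KAT6A (MOZ) had 0.04 (-0.18 to 0.25). KAT2A (GCN5) and KAT5 (TIP60) had log2 fold changes of -0.41 and -0.25 (edgeR adjusted p = 0.28 and 0.43).

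The 4 nuclear receptor coactivators of the NCOA family had log2 fold changes of 0.01 to 0.19, none past the threshold. NCOA6, the most abundant of them in CPM, had 400.0, 362, 377 and 280.1 CPM in siHoxa5, against 320, 322, 331 and 339 CPM in siN, so siHoxa5 libraries 1 to 3 lay above siN and library 4 below it. NCOA1 and NCOA2, of the steroid receptor coactivator family, had 0.19 (95% interval -0.10 to 0.49) and 0.10 (-0.19 to 0.40).

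Of the 7 deacetylases and corepressors none passed. HDAC1 had 189, 162, 160 and 162 CPM in siHoxa5, against 186, 205, 238 and 165 CPM in siN. Libraries 2 to 4 of siHoxa5 lay below siN and library 1 within it (log2 fold change -0.23, SE 0.12 and adjusted p = 0.261 by edgeR). Its paralog HDAC2, which forms the catalytic pair of NuRD and SIN3 complexes with it, had 0.03 (95% interval -0.16 to 0.22). NCOR1, the nuclear receptor corepressor, had 0.04 (-0.11 to 0.19), SIN3A, the scaffold of the SIN3 complex, 0.19 (-0.11 to 0.50), HDAC3, the deacetylase of NCOR complexes, 0.20 (-0.21 to 0.60) and HDAC8 0.28 (-0.18 to 0.74).

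Of the 9 readers tested none passed. BRD8, a bromodomain subunit of the TIP60 complex, had 196, 220.4, 199 and 191 CPM in siHoxa5, against 185, 200.02, 151 and 172 CPM in siN. The groups overlapped through siN library 2, which lay above siHoxa5 libraries 1, 3 and 4 (log2 fold change 0.19, SE 0.12 and adjusted p = 0.387 by edgeR). BRD2, a BET protein that binds acetylated histones, had -0.02 (95% interval -0.26 to 0.22). The heterochromatin proteins CBX1 and CBX5 had -0.01 (-0.19 to 0.17) and -0.14 (-0.42 to 0.14).

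**Figure D4:**
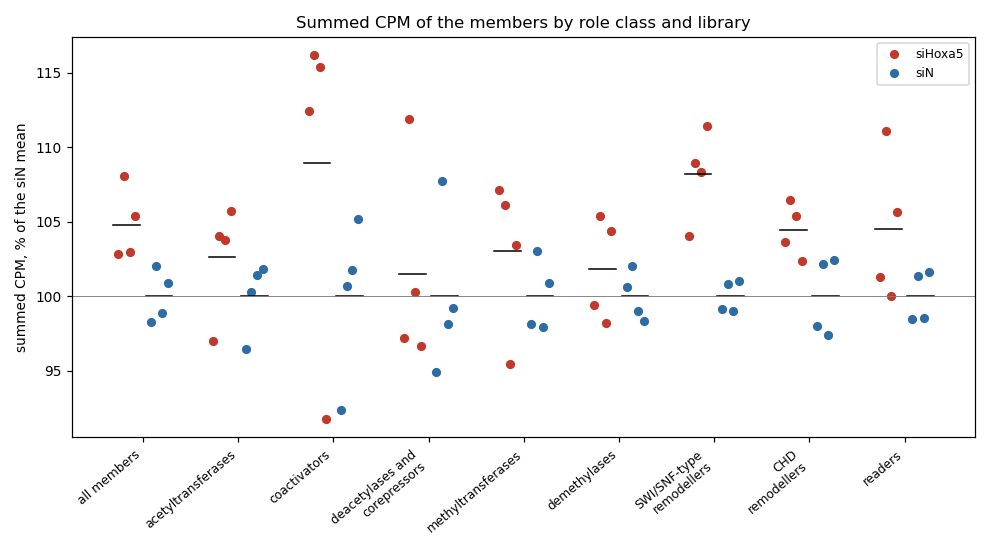
Summed CPM of each role class in each library, as % of the siN mean (vertical axis, not from 0), for siHoxa5 and siN libraries. All siHoxa5 points lie above all siN points for the SWI/SNF-type remodellers and for all members together, and coactivators have the lowest siHoxa5 point, at 524 CPM in library 4.

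All members together summed to 16723, 17571, 16742 and 17142 CPM in siHoxa5 libraries 1 to 4, against 15979, 16592, 16077 and 16408 CPM in siN libraries 1 to 4. These sums did not overlap on TMM-scaled library sizes, while as a share of raw counts they did (1.64% to 1.72% in siHoxa5 and 1.59% to 1.64% in siN, where siHoxa5 library 4 lay just below siN library 2). The 3 genes with the most counts took 8.32% to 8.65% of the counts in siHoxa5 and 6.55% to 6.95% in siN, and the part of this in the sums was not tested.

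Sums below 40 left several well known chromatin genes unmeasured. Of the 36 matching symbols below the sum, 17 were at 0 in every library and 19 had some counts. BRD9 and KDM4B had 1 count in all, NCOA3 2, KDM4A 3, BRD3, SIN3B and SMARCE1 8, KAT8 13 and KMT5A 24, and HDAC6 was at 0. These counts are too few to show a difference. Among related genes WDR5, SAP18 and DAXX were at 0 in every library and TRIM28 and RUVBL1 had 1 count in all, and the part of depth, or of the assignment of reads to symbols, in such low counts was not tested.

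Related chromatin genes outside the members were taken from 10 lists with 169 symbols in the table, of which 94 were tested. In them 4 rose in siHoxa5 and none fell, or 4.26%, where 7.12% of all tested genes were called, 3.74% as higher and 3.38% as lower. HDAC9, a class IIa deacetylase that restrains MEF2 factors in heart muscle, had 35.9, 31.0, 27.7 and 41.8 CPM in siHoxa5, against 13.8, 7.94, 12.6 and 12.3 CPM in siN, with no overlap (log2 fold change 1.53, SE 0.34 and adjusted p = 0.000604 by edgeR). It had 22, 17, 17 and 23 counts in siHoxa5, against 9, 5, 8 and 8 in siN, so it passed the filter on low counts only through the group where it is high, and it was left out where a mean of at least 20 counts was asked. Class IIa HDAC5 had 0.02 (95% interval -0.15 to 0.19) and HDAC7 0.65 (edgeR adjusted p = 0.221).

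The histone variant H2AFZ (H2A.Z) had 601, 721, 639 and 666 CPM in siHoxa5, against 518, 514, 560.3 and 585 CPM in siN (log2 fold change 0.27, SE 0.07 and adjusted p = 0.0106 by edgeR). The linker histone H1F0 had 329.8, 333, 375 and 438 CPM in siHoxa5, against 298, 286, 294 and 306 CPM in siN (0.32, SE 0.09 and adjusted p = 0.0213 by edgeR). MBD5, a protein with a methyl-CpG-binding-type domain, had 276, 328, 290.2 and 291 CPM in siHoxa5, against 234, 211, 258 and 218 CPM in siN (0.36, SE 0.10 and adjusted p = 0.0137 by edgeR). The groups did not overlap for any of these 3. Of the 94 related genes tested, 10 did not overlap (8 higher and 2 lower), or 10.6%, against 12.0% of all tested genes. Over 17 other settings the call was kept in 13 for H2AFZ, 10 for H1F0 and 12 for MBD5. Of these settings 15 gave HDAC9 a value, and its call was kept in each. That is no support for HDAC9, which passed the filter on low counts only through the group where it is high.

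The other subunits that work with EZH2 and CHD3 did not pass. SUZ12, which EZH2 needs for activity, had 745, 964, 786 and 866 CPM in siHoxa5, against 791, 791, 711 and 674 CPM in siN. The groups overlapped through siHoxa5 libraries 1 and 3 (log2 fold change 0.18, SE 0.07 and adjusted p = 0.109 by edgeR), and SUZ12 passed in 1 of 17 other settings (without siHoxa5 library 1, edgeR adjusted p = 0.0196). EED had 0.12 (95% interval -0.14 to 0.38), RBBP4 0.13 (-0.09 to 0.36) and RBBP7 0.04 (-0.06 to 0.14). Of 16 tested polycomb partners and 8 tested corepressor and NuRD partners none passed, and the NuRD subunits MTA1 and MTA2 had 0.19 and -0.14. Of 16 other remodeller subunits none passed, with SS18, a BAF subunit, at -0.27 (edgeR adjusted p = 0.206) and the helicase ATRX at 0.23 (edgeR adjusted p = 0.2).

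In the lists of other methyltransferases (11 tested), other demethylases (4), histone chaperones (8) and further acetyl-lysine readers (14) none passed either. In the fit of all 8 libraries the members of these lists with the smallest p were PRMT5, an arginine methyltransferase, at -0.32 (edgeR adjusted p = 0.14), PHF8, a demethylase, at 0.38 (0.312), the chaperone SET at -0.16 (0.0601) and ATAD2, a bromodomain ATPase, at 0.96 (0.117). SET had 1631, 1627, 1559 and 1468 CPM in siHoxa5, against 1823, 1751, 1736 and 1693 CPM in siN. The groups did not overlap, with siHoxa5 below siN, and SET passed in 5 of 17 other settings (lowest edgeR adjusted p = 0.0277, with library totals in place of TMM). PRMT5 passed in 1 (without siHoxa5 library 4, edgeR adjusted p = 0.0464) and ATAD2 in 1 (without siHoxa5 libraries 2 and 4, edgeR adjusted p = 0.047). The variant H2AFY (macroH2A1) had -0.54 (0.0663), ZMYND8 -0.35 (0.174) and UHRF2 -0.38 (0.117), all edgeR adjusted p.

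**Figure D5:**
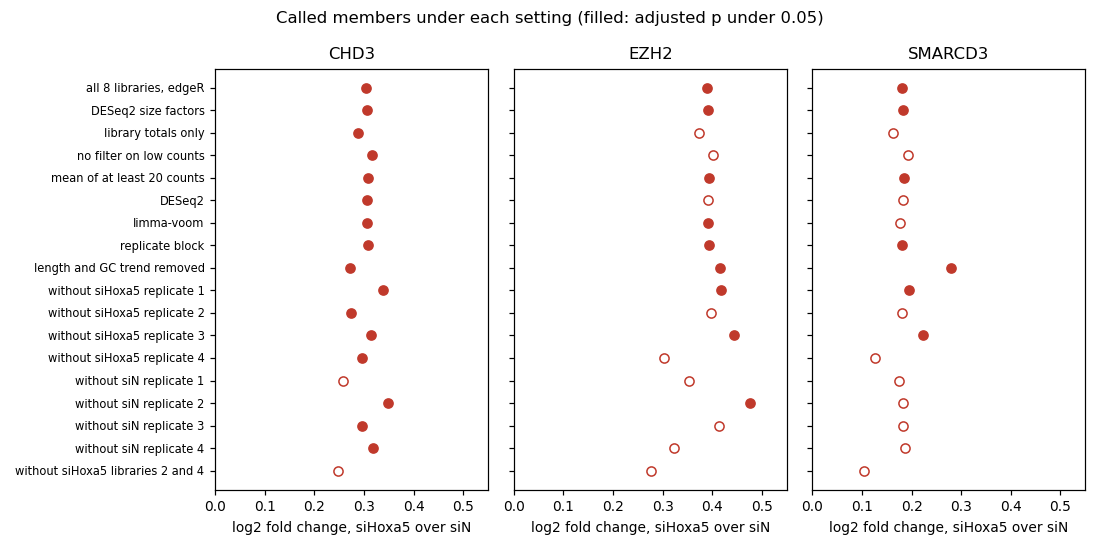
Log2 fold change, siHoxa5 over siN, of CHD3, EZH2 and SMARCD3 (horizontal axes), under the edgeR test as reported and each alternative setting, with filled points for an adjusted p under 0.05. CHD3 passed in 15 of 17 alternatives, EZH2 in 8 and SMARCD3 in 6, and all their log2 fold changes stayed above 0 (lowest 0.25, 0.28 and 0.10).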

How the data were processed

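RNA from 8 libraries (4 siHoxa5, 4 siN) was measured. Libraries were made with a TruSeq kit from RNA bound to poly-T beads and read on a NovaSeq, per the labels' protocols. The authors deposited estimated counts per gene symbol, not normalized: whole numbers except 4 symbols with values ending in 0.5. Tools per the submitters' processing notes were FastQC 0.11.8, STAR 2.6.1b, R 3.5.3 and HTSeq, on the mm10 build. Not given in the sources used here: annotation, strand setting and how multiply mapped reads were counted. That kit marks no strand, so a gene and its antisense or overlapping partner cannot be separated, and paralogs could share reads. The 8 library files equalled the columns of the series table. Symbols are spelled as human genes and were matched to mouse genes by name, ignoring case.

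Counts were rounded and tested with edgeR 4.0.16 (limma 3.58.1, R 4.3.3): TMM, filterByExpr (minimum count 10, minimum total 15), robust quasi-likelihood fit, group as the only term, Benjamini-Hochberg adjustment over 3020 genes, which held 98.6% of the counts, and a threshold of 0.05. CPM values and 95% intervals come from this fit. The common biological coefficient of variation was 6.10%. Per-kilobase values use the longest protein-coding GENCODE M21 transcript. This definition replaced the longest transcript of any kind after a first run, in which SMARCB1 had an implausible length. Paralog ratios were compared by exact permutation tests (scipy 1.17.1). The fit was also run on simulated counts that gave every gene this common variation. That run differs from the data in this and does not vouch for the calls here. DESeq2 1.42.0, limma-voom, other scalings and filters, a length and GC correction and each library left out were tried as alternatives.

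Members and lists were chosen with earlier results of these data known. Results of some single genes are not reported here. Named genes were the members past the threshold, per class the 3 with the smallest p and the 2 with the highest CPM, the 3 largest and 3 smallest log2 fold changes, the sums nearest to 40, and per related list up to 2 genes with the smallest p and any past the threshold. Other named genes (paralogs, complex partners, cell type markers and genes with few or no counts), the 12 paralog pairs, the promoter motifs and the fit without siHoxa5 libraries 2 and 4 were chosen after values were seen. Same-numbered siHoxa5 and siN libraries deviated with correlations of -0.0201 to 0.0662, so the numbers were not used as pairs.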

Additional observations from a re-analysis of the deposited data

Results flagged for a closer look

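In 90 groups of 4 libraries (36 named members and 9 sums, in siHoxa5 and siN), 1 library stood far from the other 3 in 6, all of them siHoxa5; chance gives about 1 in 20 groups. KAT2A was highest in siHoxa5 library 3, at 68.5 CPM, KAT6A in library 4, at 275 CPM, and HDAC1 in library 1, at 189 CPM. HDAC8 was lowest in siHoxa5 library 2, at 32.8 CPM, and KDM6B in library 4, at 127 CPM. The summed coactivators were lowest in siHoxa5 library 4, at 524 CPM.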

How the results depend on the processing

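In 17 alternative settings CHD3, EZH2 and SMARCD3 kept log2 fold changes above 0. Of the members 1 (CHD3) passed with library totals in place of TMM, or 1.28% against 7.25% of all tested genes. With no filter on low counts 1 (CHD3) passed, or 1.27% against 2.06%. DESeq2 called 1 member (CHD3), or 1.28%, and 119 genes in all, or 3.94% of all 3020 tested genes. With both siHoxa5 libraries 2 and 4 left out, a setting added after seeing the data, 0 members passed (4 higher and 1 lower at an unadjusted p under 0.05 in edgeR, or 6.41% against 15.7% of all tested genes) and 143 genes in all, or 4.45%. Leaving out 1 library at a time gave 0 (without siN library 1, with 6 higher and 2 lower at an unadjusted p under 0.05 in edgeR, or 10.3% against 17.2% of all tested genes) to 6 members (without siHoxa5 library 1, 7.69% against 8.42%). The replicate block used numbers that are not known to pair the libraries (4 of 8 correlated best with their own number). It gave 3 members (3.85%) and 250 genes (8.28% of all tested genes). The length and GC correction moved the members' median to -0.0069. Without siHoxa5 library 2, siHoxa5 library 4, siN library 3 or siN library 4, 1 member (CHD3) passed in each fit, or 1.28%. Of all tested genes 5.05%, 6.77%, 4.82% and 4.74% passed in these fits, in the same order. No other member count moved beyond 1.5 times, and no other median moved beyond the SD.

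Signs turned only for genes that did not pass. All but HR were close to 0 in the fit of all 8 libraries, where HR had -0.14 (SE 0.33). With library totals CHD4 had -0.0056 and SETD5 -0.00031, with no filter CBX1 0.0044, and with limma-voom HR 0.035. With the length and GC correction CBX1 had 0.058, CHD4 -0.021, KAT6A -0.037, SETD5 -0.011, KMT2D -0.092 and NCOR1 -0.031. Without siHoxa5 libraries 2 and 4 KAT6A had -0.048, SETD5 -0.052 and HDAC2 -0.068. Leaving out 1 library gave ranges of -0.091 to 0.047 for CBX1, -0.042 to 0.047 for CHD4, -0.044 to 0.085 for KAT6A, -0.060 to 0.020 for CREBBP, -0.034 to 0.061 for SETD5, -0.0049 to 0.082 for KMT2D, -0.0079 to 0.10 for NCOR1, -0.11 to 0.091 for HDAC2, -0.090 to 0.025 for KDM6A and -0.39 to 0.37 for HR, a demethylase of the related lists. The causes were not tested. The median standard error of a member's log2 fold change was 0.14.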
